A study of Mus musculus with 4 samples.

Results

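Notch signalling was described here through 10 genes of mouse lung vessels: the 4 receptor genes Notch1, Notch2, Notch3 and Notch4, the ligand genes Dll4, Jag1 and Jag2, and the target genes Hey1, Heyl and Hes1. They were taken by symbol from the 31253 genes of the feature lists, and each symbol named 1 gene. The study profiled single lung cells of mice on the C57BL/6J background that had been kept in hypoxia for 6 weeks, starting at an age of 6 to 8 weeks. WT mice were compared with Vegfr2Y949F mice, whose VEGFR2 (the receptor of VEGF-A on endothelium, gene Kdr) carries a tyrosine-to-phenylalanine change, as the name states. Lungs of 2 mice were pooled for every library, 8 mice in all, and each genotype had a library labelled set A and another labelled set B. All 4 libraries came from hypoxic lungs, and no normoxic library was analysed here.

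Notch receptors sit in the plasma membrane and bind Delta-like and Jagged ligands on a neighbouring cell. Binding lets ADAM10 and then gamma-secretase cut the receptor, and the freed intracellular domain enters the nucleus, where it joins RBPJ and Mastermind proteins on target genes such as those of the Hes and Hey repressors. In blood vessels, Dll4 acting on Notch1 and Notch4 restrains sprouting and sets arterial identity, VEGF-A is known to raise Dll4, and Notch3 is the receptor of pericytes and smooth muscle cells that endothelial Jag1 engages.

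The libraries held 11992 to 15160 barcodes and 83606389 to 96521589 unique molecular identifiers (UMIs, counted transcripts), and 9304 to 11446 cells per library were kept. The median depth of kept cells was 4339 and 4312 UMIs in the WT and Vegfr2Y949F libraries of set A, and 5472 and 5548.5 in those of set B. Any 2 libraries shared 28 to 54 cell barcodes after filtering. Clusters named from markers gave 12914 general capillary cells, 3553 aerocytes (the large, thin capillary cells apposed to the alveoli), 451 arterial cells, 1509 venous cells, 318 lymphatic cells, 766 pericytes and 255 smooth muscle cells. Blood endothelial cells of 2 further clusters, whose markers lay between 2 of these types, brought the total called all endothelial cells to 22512. Lymphatic cells were kept apart from that total, and only 23 and 27 of them came from the WT and Vegfr2Y949F libraries of set A. Levels are CPM, the UMIs of a gene per 1000000 UMIs summed over the cells of a type in a library, and library values are always in the order WT A, WT B, Vegfr2Y949F A, Vegfr2Y949F B. Means carry the SD over these 4 libraries. The cells were named partly from variable genes that included Notch3, the only one of the 10 genes among them, so levels across types are given as a description with no test.

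To set an endothelial gene beside a mural one, Dll4 and Notch3 were chosen, a ligand read mainly in endothelium and a receptor read in mural cells. The 250 bases before the transcription start of each are shown 5′ to 3′ on the gene's own strand, from RefSeq promoters of build GRCm38.p6, with GGAAG (a core bound by ETS factors, searched on both strands) in capitals. The Dll4 window lies on the plus strand at chr2:119325534-119325783, and the Notch3 window on the minus strand at chr17:32166891-32167140.
Dll4: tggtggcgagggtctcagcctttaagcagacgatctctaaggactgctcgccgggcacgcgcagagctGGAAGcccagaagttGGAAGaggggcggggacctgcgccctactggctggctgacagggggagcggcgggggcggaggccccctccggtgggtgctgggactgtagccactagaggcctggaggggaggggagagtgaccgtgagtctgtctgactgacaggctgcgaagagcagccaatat
Notch3: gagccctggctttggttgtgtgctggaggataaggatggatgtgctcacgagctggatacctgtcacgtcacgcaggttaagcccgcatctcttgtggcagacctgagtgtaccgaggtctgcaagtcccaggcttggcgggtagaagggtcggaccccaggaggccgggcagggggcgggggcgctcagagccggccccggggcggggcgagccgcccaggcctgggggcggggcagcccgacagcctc
The Dll4 window holds GGAAG at 2 places, starting 182 and 167 bases before the start, and the Notch3 window holds it nowhere. Of all 32851 promoter windows of this length, 64.1% hold GGAAG or its reverse complement CTTCC, so a match of these letters is common. The core TGGGAA, which RBPJ binds, and the TATA-type element TATATAA were in none of the windows of the 7 genes listed, against 21.6% and 3.04% of all windows, and a window without these letters says nothing on binding elsewhere. The bases of the windows were 65.6% G or C for Dll4 and 68.8% for Notch3. Promoters of Hey1, Heyl and Hes1 were not used here.

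The gene bodies were taken from GENCODE M21, which annotates mm10 (GRCm38). Notch1 (ENSMUSG00000026923) spans chr2:26457903-26516663 on the minus strand and Notch2 (ENSMUSG00000027878) chr3:98013527-98150361 on the plus strand. Notch3 (ENSMUSG00000038146) spans chr17:32120820-32166852 on the minus strand and Notch4 (ENSMUSG00000015468) chr17:34564268-34588503 on the plus strand. The ligand genes Dll4 (ENSMUSG00000027314) and Jag1 (ENSMUSG00000027276) both lie on chromosome 2, at chr2:119325784-119335962 and chr2:137081456-137116644, and Jag2 (ENSMUSG00000002799) lies at chr12:112907819-112929776. The target genes are Hey1 (ENSMUSG00000040289) at chr3:8663359-8667256, Heyl (ENSMUSG00000032744) at chr4:123233556-123249875 and Hes1 (ENSMUSG00000022528) at chr16:30064384-30067796.

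Among the receptors, Notch4 was mainly endothelial, Notch3 mural, and Notch1 shared by endothelial cells and pericytes. Notch1 was read in every vascular type, with 425 ± 77.1 CPM in arterial, 364 ± 37.3 in lymphatic, 350 ± 56.6 in general capillary, 289 ± 63.6 in venous, 288 ± 38.1 in aerocyte and 284 ± 99.3 in pericyte sums (SD, n = 4). The ranges of neighbours in this order overlapped, and arterial cells were the highest type in each of the 4 libraries. Smooth muscle cells stood apart at 119 ± 52.3 CPM, 2.39-fold below pericytes, with no overlap between the library values. The level in pericytes was 76.0% to 109% of that in endothelial cells of the same library, while a list of 5 pan-endothelial marker genes stood at 1.15% to 4.77% there. Neutrophils, which served as a rough guide to free RNA, were at 52.3 ± 15.5 CPM. How much of this is their own Notch1 RNA was not tested.

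Notch4 was higher in blood endothelium than in the other vascular types. Its level was 145 ± 6.02 CPM in arterial, 131 ± 24.6 in general capillary, 98.99 ± 20.95 in aerocyte and 90.1 ± 25.0 in venous cells, and neighbours in this order overlapped. Lymphatic cells (25.0 ± 25.9), pericytes (23.95 ± 6.85) and smooth muscle cells (9.44 ± 8.60) lay below all 4 blood endothelial types in every library, and neutrophils were at 7.34 ± 1.95. The pericyte level was 17.4% to 22.9% of the endothelial one, above the 1.15% to 4.77% of the endothelial marker list in the same sums.

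Notch3 marked the mural cells. Pericytes held 1255, 991, 1456 and 1003 CPM and smooth muscle cells 1013, 636, 1033 and 564 CPM. Pericytes were the higher of the 2 in each library, by 1.45-fold in the means, but the 2 ranges overlapped. All endothelial cells held 1.79 ± 0.720 CPM, 658-fold below pericytes in the means and 556- to 843-fold within libraries. A Notch3 UMI was found in 96.6 ± 0.496% of pericytes and in 1.22 ± 0.387% of general capillary cells, against 0.304% of neutrophils, at median depths of 3944 to 5486, 3786.5 to 5319 and 2646 to 3443.5 UMIs per cell.

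Notch2 was highest in pericytes as well, with 156, 150, 171 and 164 CPM, no library overlapping the 62.0 ± 9.41 CPM of smooth muscle cells. Lymphatic endothelium held 56.9 ± 25.0 CPM, and the 4 blood endothelial types only 5.19 to 8.69 CPM in the means, 22.0-fold below pericytes for all endothelial cells together. Blood endothelium thus lay below neutrophils (213 ± 19.6 CPM), cells that read Notch2 strongly.

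The ligands Dll4 and Jag2 were endothelial, and Jag1 was shared with the mural cells. Dll4 was highest in arterial cells, at 165, 174, 150 and 165 CPM, but where clustering left out the Notch genes the lymphatic mean of 130 CPM was higher. Next in order were lymphatic (128 ± 59.1), general capillary (97.5 ± 9.62) and aerocyte (85.5 ± 9.96) sums. Its drop came at the veins: venous cells held 19.2, 17.3, 10.4 and 16.6 CPM, 10.3-fold below arterial cells in the means and 8.59- to 14.4-fold within libraries. The lymphatic values ran from 54.6 to 198 CPM, the lowest and the highest being those of the libraries with 27 and 23 lymphatic cells. Pericytes and smooth muscle cells, at 5.58 ± 5.51 and 3.66 ± 4.24 CPM, were close to neutrophils (5.90 ± 1.87).

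Jag2 held 136 ± 26.8 CPM in arterial, 110 ± 8.56 in aerocyte and 110 ± 14.2 in general capillary cells, 3 types with overlapping ranges. Venous (60.0 ± 11.9) and lymphatic (47.1 ± 7.87) cells overlapped each other and lay below those 3 in all libraries. Jag2 was 2.27-fold higher in arterial than in venous cells, a smaller ratio than that of Dll4. Mural cells were near background, with 9.76 ± 3.98 CPM in pericytes, against 7.45 ± 4.47 in neutrophils.

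Jag1 varied least between the means of the 7 types, a ranking that rests on aerocytes taken as 1 type. It was 86.2 ± 4.84 CPM in arterial, 82.7 ± 7.66 in venous, 74.8 ± 11.7 in general capillary, 61.5 ± 14.9 in smooth muscle, 57.1 ± 16.7 in lymphatic and 54.9 ± 13.9 in pericyte sums, each overlapping the next. Unlike Dll4 and Jag2, it showed no step between arteries and veins. Aerocytes were lowest, at 42.0 ± 6.13 CPM, 2.05-fold below arterial cells with no overlap. In aerocyte cluster 7, described below, Jag1 was lower still, at 19.3 ± 4.15 CPM.

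The 3 target genes had 3 different patterns. Hey1, a repressor that acts in arterial specification, was highest in arterial cells (138, 109, 171 and 117 CPM) and general capillary cells (135, 81.3, 151 and 88.6 CPM), which overlapped, and arterial cells led in each library. Aerocytes (54.5 ± 18.9), venous (41.2 ± 15.4) and lymphatic (32.0 ± 33.3) cells followed, and pericytes were at 7.68 ± 4.68, like neutrophils at 7.28 ± 5.68. The place of aerocytes rests on taking them as 1 type. In aerocyte cluster 7, described below, Hey1 was 10.1 ± 1.76 CPM, under the venous mean. Smooth muscle cells ranged from 5.18 to 50.4 CPM, and the highest value came from the Vegfr2Y949F A library, where the endothelial marker list was also highest in these cells, at 10.9% of its endothelial level against 0.722% to 5.46% in the other libraries. The part of endothelial RNA in that value was not tested.

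Heyl, a related repressor known downstream of Notch3, followed the mural cells. Pericytes held 154, 161, 179 and 185.5 CPM and smooth muscle cells 225.5, 94.9, 167 and 112 CPM, 2 overlapping ranges. All endothelial cells held 0.329 ± 0.112 CPM, 516-fold below pericytes in the means, and the highest endothelial mean was 2.90 ± 4.29 CPM, in the few lymphatic cells. Heyl had no UMI in the arterial, venous and lymphatic cells of both WT libraries. The highest Vegfr2Y949F values there were 2.21, 0.307 and 9.09 CPM, the last from a library with 27 lymphatic cells. Values this near the floor are given as a description. Outside the vessel wall, alveolar and adventitial fibroblasts, which are also mesenchymal, held 37.6 ± 4.13 and 47.3 ± 12.8 CPM.

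Hes1, a target of Notch and of other signals, was broad. It stood at 843 ± 146 CPM in lymphatic cells, 813 ± 248 in pericytes, 625 ± 152 in smooth muscle, 597 ± 30.8 in venous, 491 ± 60.0 in general capillary, 372 ± 57.8 in aerocyte and 340 ± 81.7 in arterial cells, each overlapping the next. The arterial mean was the lowest of the 7, but arterial and aerocyte values overlapped. Pericytes exceeded arterial cells by 2.39-fold with no overlap. These levels across types are shown in the plots of each gene by vascular cell type.

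**Figure D1:**
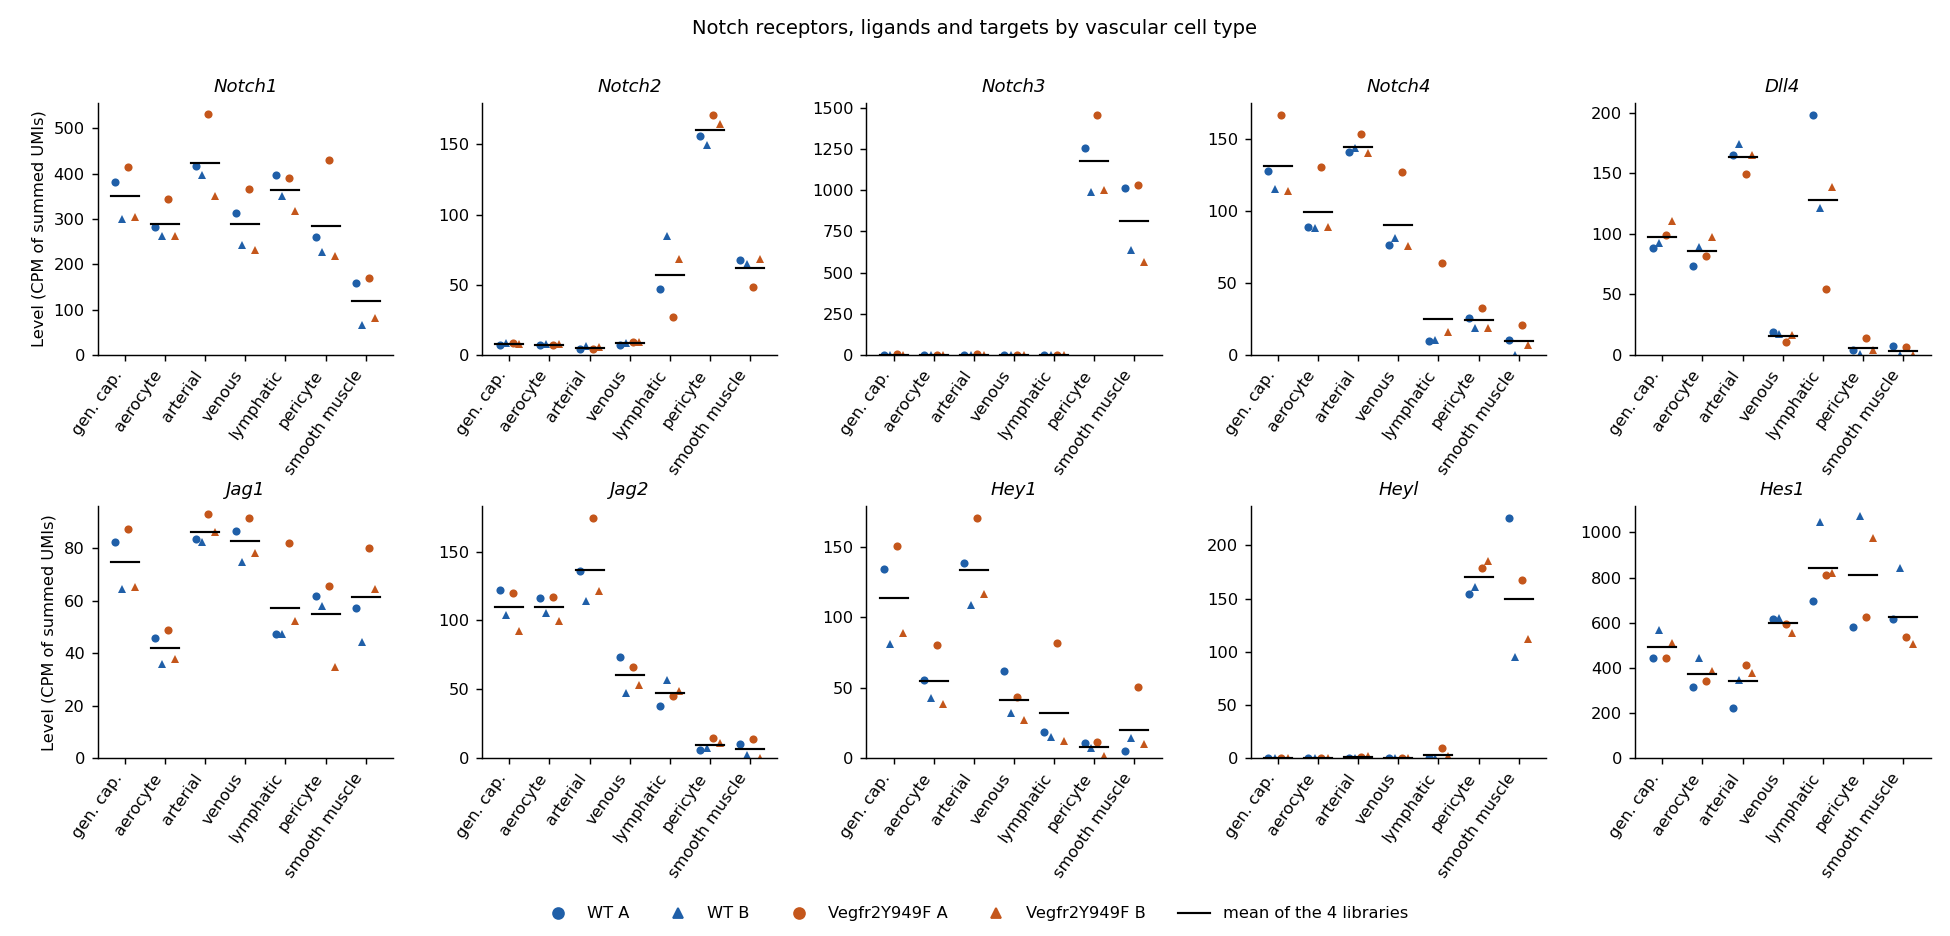
Level of each of the 10 genes (vertical axis, CPM of summed UMIs, linear from 0) in 7 vascular cell types (horizontal axis, gen. cap. for general capillary); points are the 4 libraries, coloured by genotype with circles for set A and triangles for set B, and lines are their means. Notch3 and Heyl sit near 0 in all 5 endothelial types, and Dll4 falls from 164 CPM in arterial to 15.85 in venous cells.

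Aerocytes came in 2 clusters, and Hey1 and Jag1 had no overlap between them. The 1829 cells of the first (cluster 7) had a median depth 1.09 times that of their libraries, an aerocyte marker list at 11380 to 14080 CPM and a general capillary list at 1001 to 1413 CPM. The 1724 cells of the other (cluster 6) were 3.14 times as deep, held the aerocyte list at 5421 to 6220 CPM and the general capillary list at 5358 to 7390 CPM, and had lost 14.3% of barcodes as doublets, against 0.273% in the first. Hey1 was 11.2, 10.7, 10.9 and 7.45 CPM in the first cluster and 72.0, 54.1, 96.2 and 51.8 in the deep one, a ratio of 6.80 in the means. In the first cluster Hey1 was close to its level in neutrophils and 11.3-fold below general capillary cells. Jag1 was 19.3 ± 4.15 CPM in the first cluster and 49.6 ± 6.17 in the deep one, with no overlap. Dll4 (87.2 ± 9.59 and 84.8 ± 10.3 CPM), Jag2 (108 ± 12.7 and 110 ± 7.14) and Notch1 (286 ± 53.9 and 290 ± 33.9) differed between the clusters by less than the spread of the libraries. Hes1 (318 ± 84.8 and 389 ± 51.7 CPM) and Notch4 (86.5 ± 19.1 and 103 ± 20.6) were higher in the deep cluster in each of the 4 libraries, by 1.22- and 1.19-fold in the means, with overlapping ranges. How much general capillary RNA the deep cluster holds was not tested.

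The general capillary cells were not uniform for Dll4 either. Cluster 11, led by Plvap (an endothelial diaphragm protein), held 52, 52, 601 and 772 cells of the 4 libraries, so that most of its cells came from Vegfr2Y949F lungs. Its Dll4 level was 252, 150, 128 and 163 CPM, overlapping that of arterial cells, while its Jag2 level was 73.3 ± 24.9 CPM. The remaining general capillary clusters, numbered 0, 2 and 4, held 89.7 ± 6.82, 106 ± 13.1 and 69.8 ± 5.24 CPM of Dll4. Cluster 3, whose markers lay between general capillary and arterial cells, held 64.1 ± 6.45 CPM of Dll4, 2.70-fold below cluster 11, and 145 ± 14.4 CPM of Jag2, 1.98-fold above it. Cluster 15, between general capillary and venous cells, held 34.0 ± 2.09 CPM of Dll4 and 96.0 ± 1.01 of Jag1. The ligands were thus arranged differently among capillary clusters, as the plot of ligands and Hey1 by endothelial cluster shows. The clusters were formed from the same cells, so these differences are a description.

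**Figure D2:**
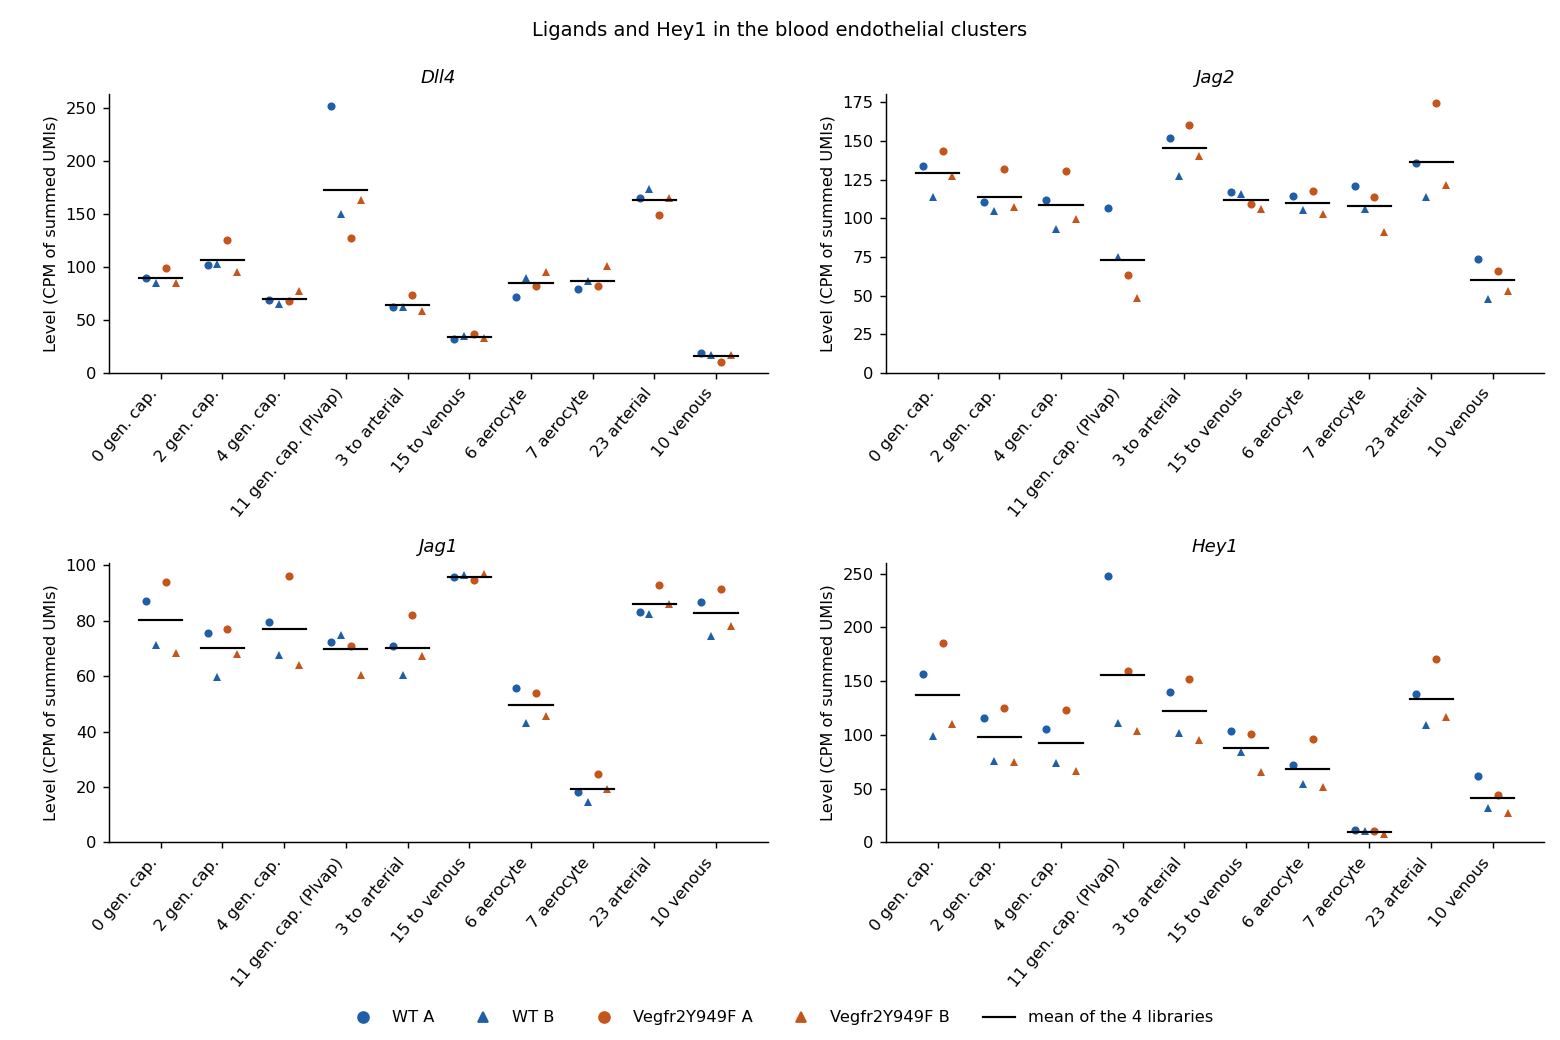
Level of Dll4, Jag2, Jag1 and Hey1 (vertical axes, CPM of summed UMIs, linear from 0) in 10 blood endothelial clusters (horizontal axes, with the cluster number and type; "to arterial" and "to venous" are the 2 clusters between types); points are libraries and lines their means. Hey1 and Jag1 are lowest in aerocyte cluster 7, at 10.1 and 19.3 CPM, and Dll4 is highest in Plvap-led cluster 11 and in arterial cells, at 173 and 164 CPM.

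For each of the 10 genes, the genes with the most similar pattern over the 28 sums of 7 types in 4 libraries were ranked by the Pearson r of log2(CPM + 1) among 6579 genes. The sums share libraries and depth, so r is a description. Notch3 was most like Tnfrsf19 (r = 0.991), Trarg1 (0.9898) and Pdgfrb (0.9897), the last being the PDGF receptor of mural cells. Heyl was most like C1s1 (0.985), Ppp1r14a (0.984) and Pla2r1 (0.982), and Notch2 like Dennd2a (0.980). On the endothelial side Jag2 was most like Fgd5 and Erg (both 0.958), 2 endothelial genes of which Erg is an ETS factor, and Hey1 like Inpp1 (0.958) and Vegfa (0.932). Notch1 was most like Ppp1r9b (0.899) and Ets1 (0.889), and Notch4 like Sec14l1 (0.934). Dll4 was most like Cd24a (0.920) and Git2 (0.917), and Jag2 was the third in its list (0.894). Jag1 had no close partner, with Sowahc at 0.788, and Hes1 was most like Tmsb10 at 0.865.

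The other pathway genes came from a list of 69 that covered further ligands, fringes and other sugar-transferring enzymes, cleavage, endocytosis and turnover, the nuclear complex and further targets. Of these, 55 reached a mean of 20 CPM in at least 1 vascular type, and the highest type was pericytes for 18, aerocytes for 10, lymphatic cells for 9, smooth muscle for 8, arterial cells for 5, venous cells for 3 and general capillary cells for 2. For 8 of the 18 pericyte genes the libraries did not overlap with the next type. The same held for 4 of 10 aerocyte, 2 of 9 lymphatic, 3 of 8 smooth muscle, 1 of 5 arterial, 1 of 3 venous and 0 of 2 general capillary genes. The highest type was not counted over all genes, so the pericyte share is not shown to be particular to this list. Among further ligands, Dll1 was higher in venous (208 ± 25.8 CPM) and general capillary (149 ± 16.4) than in arterial cells (80.5 ± 9.31), the reverse of Dll4 in these 3 types. Aerocytes (69.5 ± 7.39) and lymphatic cells (50.4 ± 43.9) had lower means. Manic fringe (Mfng), which modifies Notch receptors, was highest in aerocytes at 139 ± 12.1 CPM, against 67.3 ± 7.09 in arterial cells. The feedback inhibitor Nrarp was highest in pericytes (276 ± 70.8 CPM) and next in arterial cells (90.0 ± 29.5), and the arterial ligand Efnb2 was highest in arterial cells (657 ± 84.4). Hey2 was highest in mural cells, with 75.6 ± 19.6 CPM in smooth muscle and 57.9 ± 16.4 in pericytes, against 26.9 ± 10.5 in arterial cells, the highest endothelial mean, and 6.66 in general capillary cells. The coactivator Maml3 was highest in pericytes at 133 ± 33.2 CPM with no overlap, the ligase Dtx1 in lymphatic cells at 100 ± 50.2 CPM, and the protease Adam10 in lymphatic cells at 273 ± 58.5 CPM.

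Genotype was compared to ask whether the Y949F change of VEGFR2 alters these genes in hypoxic lung vessels. No member of the Notch set passed the test in all endothelial cells. With edgeR's quasi-likelihood test, 0 of 10 members had an adjusted p under 0.05 and 0 had an unadjusted p under 0.05, and DESeq2 also called 0. Of all 13937 genes tested there, edgeR called 0.0%, and 1.2% had an unadjusted p under 0.05, while DESeq2 called 7 of these genes. The median log2 fold change was 0.05 over the 10 members and -0.01 over all genes, and 6 members were higher in Vegfr2Y949F. The p-values measure the spread between 2 pools per genotype, and with 2 libraries on each side the smallest p of an exact permutation test is 0.333.

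Among receptors in all endothelial cells, Notch1 was 344, 286, 394 and 287 CPM and Notch4 was 113, 107, 152 and 106 CPM. For both, the Vegfr2Y949F A library was highest and the Vegfr2Y949F B library lay beside WT B, so the genotypes overlapped. The log2 fold changes were 0.04 (SE 0.19) for Notch1 and 0.16 (SE 0.18) for Notch4, both with an edgeR adjusted p of 1.00. Notch2 gave -0.03 (SE 0.20), and Notch3 and Heyl, near 0 in these cells, gave 0.12 (SE 0.45) and 0.39 (SE 0.54).

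Dll4, the ligand known to respond to VEGF-A, was 73.2 and 83.2 CPM in WT and 83.98 and 94.8 CPM in Vegfr2Y949F endothelial cells. In CPM, which lack the TMM normalization factors of the fit, both Vegfr2Y949F libraries lay above both WT libraries. The log2 ratio was 0.20 in set A and 0.19 in set B. The closest pair was WT B at 83.2 and Vegfr2Y949F A at 83.98 CPM, and overlap on the TMM scale was not tested. Dll4 was the 1 member of 10 without overlap in that direction, and none lay wholly below. On the same CPM scale, 14.8% of all genes tested lay above and 7.26% below. The fitted log2 fold change was 0.14 (SE 0.17, edgeR adjusted p = 1.00). Without Plvap-led cluster 11, which held few WT cells, it was -0.0022 (SE 0.15). Jag1 (73.5, 59.6, 75.9 and 61.3 CPM) and Jag2 (123, 102, 124 and 94.96 CPM) were higher in set A in both genotypes, a set difference that did not pass the edgeR test (adjusted p = 0.149 and 0.13). Their genotype log2 fold changes were -0.02 (SE 0.15) and -0.10 (SE 0.17).

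Of the targets, Hey1 was 111, 70.4, 124 and 72.3 CPM and Hes1 was 412, 528, 411 and 476 CPM in all endothelial cells. The 2 libraries of a set were closer than the 2 of a genotype for both. The log2 fold changes were 0.05 (SE 0.28) for Hey1 and -0.14 (SE 0.22) for Hes1, with edgeR adjusted p of 1.00 for each. The summed erythroid marker list was 495, 840, 1122 and 1056 CPM in these cells, higher in both Vegfr2Y949F libraries. The aerocyte, lymphatic, adventitial fibroblast, alveolar macrophage and platelet lists were also higher in both. The interstitial macrophage, glial and pan-endothelial lists were lower in both, the last at 7827, 7351, 7274 and 7068 CPM. The part of these lists in the values was not tested.

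In mural cells the test also called 0 of the 9 members that passed the low-count filter, with 0 at an unadjusted p under 0.05 and 0 by DESeq2. Of all 9511 genes, 0.0% were called and 1.99% had an unadjusted p under 0.05. Dll4 did not pass the filter. Notch3 was 1188, 871, 1316 and 886 CPM, and the values of set A lay above those of set B in both genotypes. The log2 fold change was 0.05 (SE 0.28) for Notch3, 0.05 (SE 0.23) for Notch2, 0.09 (SE 0.24) for Heyl, 0.34 (SE 0.29) for Notch1 and -0.18 (SE 0.32) for Hes1, with edgeR adjusted p of 1.00 throughout. In CPM, Jag2 was the 1 member whose genotypes did not overlap, at 7.18, 5.46, 14.4 and 8.16. Of all genes, 15.5% lay higher in both Vegfr2Y949F libraries and 11.3% lay lower in both. The Jag2 values were 5.38% to 11.6% of the endothelial level. The endothelial marker list stood at 4.51%, 3.75%, 6.78% and 1.04% of its endothelial level in the same sums. The plot of genotype differences shows that in endothelial cells the interval of 1 SE around each estimate spanned 0.

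**Figure D3:**
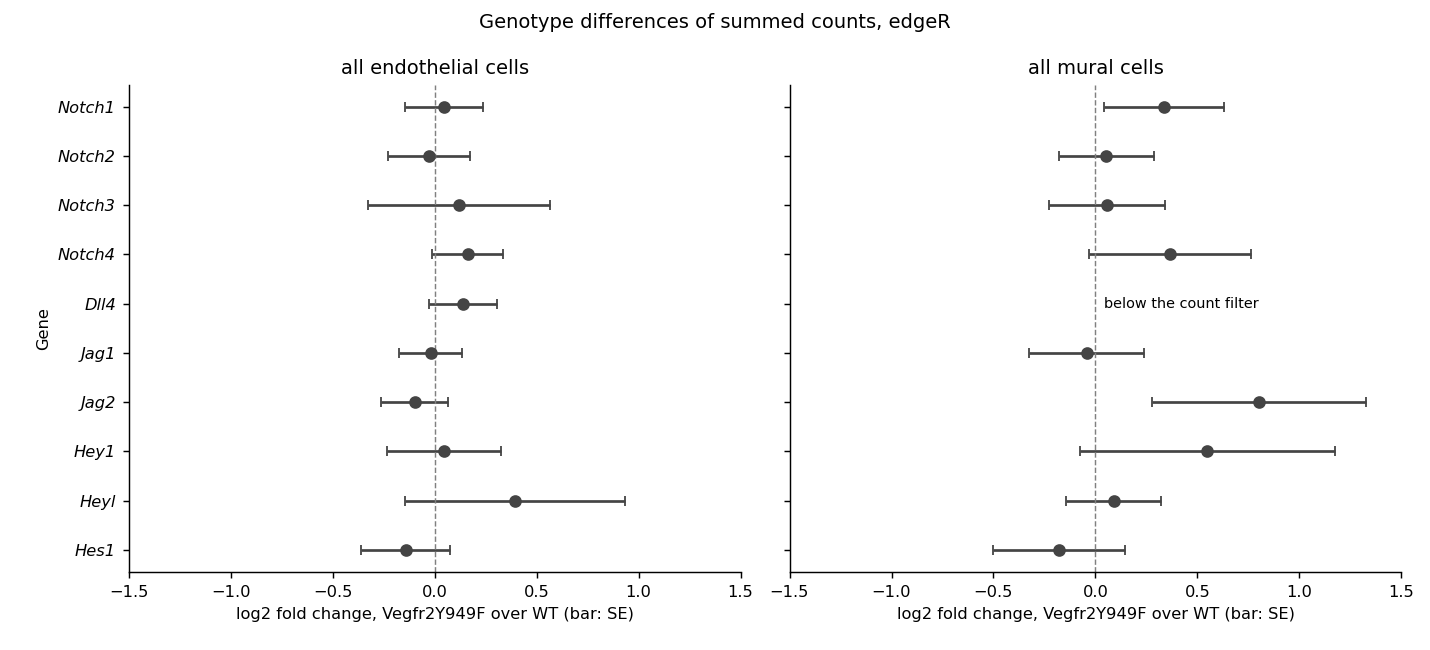
log2 fold change of Vegfr2Y949F over WT (horizontal axis) for the 10 genes (vertical axis) in all endothelial cells and for 9 of them, without Dll4, in all mural cells; points are edgeR estimates from 2 libraries per genotype and bars are 1 SE. Estimates lie between -0.14 and 0.39 in endothelial and between -0.18 and 0.80 in mural cells, and none passed the test.

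The single types gave the same count. Of the members that passed the filter, 0 of 10 in general capillary cells, 0 of 9 in aerocytes, 0 of 7 in arterial, 0 of 8 in venous, 0 of 6 in lymphatic, 0 of 9 in pericyte and 0 of 6 in smooth muscle sums were called by edgeR, with 0 at an unadjusted p under 0.05 and 0 by DESeq2. The share of all genes called by edgeR was 0.0% in each of these types but venous cells, where it was 0.0195%. DESeq2 called 13 of 12774 genes in general capillary, 1 of 11593 in aerocyte and 2 of 10249 in venous sums, and 0 in the other types. Unadjusted p under 0.05 was found for 2.04% of all genes in general capillary, 1.32% in aerocyte, 2.07% in arterial, 1.79% in venous, 0.685% in lymphatic, 2.25% in pericyte and 2.84% in smooth muscle sums.

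Whether the genotype difference of a gene varied between types was tested as an interaction within libraries. No member passed in 4 such tests with edgeR or DESeq2 (for aerocytes, DESeq2 gave no adjusted p for 7447 of 12803 genes, Notch2 and Notch3 among them), while 0.109% of all genes were called for aerocyte against general capillary cells, 0.272% for arterial, 0.071% for venous, and 0.105% for smooth muscle cells against pericytes. For aerocytes and for smooth muscle cells 0 members had an unadjusted p under 0.05, against 4.43% and 4.93% of all genes. The aerocyte sums included deep cluster 6, and the interaction was not run without it. Without that cluster they held 2671352, 2234464, 2298359 and 2549384 UMIs, against 9916721, 8724497, 12605400 and 8595515 with it. At an unadjusted p under 0.05 stood 1 of 9 members for arterial cells, against 5.1% of all genes, and 2 of 9 for venous cells, against 4.38%. The arterial one was Hes1. In arterial cells Hes1 was 224, 344, 412 and 377 CPM and in general capillary cells 445, 569, 443 and 508 CPM. The lowest arterial value was that of the WT A library. The interaction was 0.59 on the log2 scale (SE 0.16), with an edgeR adjusted p of 0.0699, and the adjusted p over its alternatives ran from 0.0086 to 1.00. The call at 0.0086 came without the Vegfr2Y949F B library (log2 difference 0.80), and the difference fell to 0.25 where clustering left out the Notch genes and the arterial class grew to 1590 cells. Within arterial cells alone the log2 fold change was 0.43 (SE 0.25, edgeR adjusted p = 0.999).

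The venous ones were Hey1 and Dll4, both lower in Vegfr2Y949F veins relative to general capillary cells. The general capillary sums included the Plvap-led cluster, most of whose cells came from Vegfr2Y949F lungs, and the interaction was not run without it. In CPM, the log2 ratio of Dll4 between genotypes was -0.89 in set A and -0.06 in set B in venous cells. In general capillary cells it was 0.16 and 0.26. The part of the Plvap-led cluster in the Dll4 interaction was not tested. Venous Hey1 was 61.9, 32.0, 43.7 and 27.3 CPM, lower in Vegfr2Y949F within each set but overlapping between sets. Its interaction was -0.53 (SE 0.14, edgeR adjusted p = 0.74), and that of Dll4 was -0.62 (SE 0.21, edgeR adjusted p = 1.00). Neither passed the test in the alternatives run, with adjusted p from 0.21 to 1.00 for Hey1 and from 0.448 to 1.00 for Dll4.

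The other pathway genes did not pass the test either. In all endothelial cells 62 of the 69 were tested, 31 higher and 31 lower in Vegfr2Y949F, with 0 called by edgeR and 1 at an unadjusted p under 0.05, and their median log2 fold change was 0.00045, against -0.0060 for all genes. The largest differences were those of Hes7 (-0.49, SE 0.30), Dtx1 (-0.38, SE 0.60) and Nrarp (-0.37, SE 0.17), all lower. Nrarp was 53.3, 46.7, 36.7 and 43.7 CPM. Hes7 (2.02, 2.41, 1.98 and 1.33 CPM) and Dtx1 (0.298, 0.241, 0.319 and 0.108 CPM) were near the floor. For Dtx1 the Vegfr2Y949F A library was the highest. The gene at the unadjusted p was Hes6 (log2 fold change -0.34, edgeR adjusted p = 1.00), named after its value was seen. In all mural cells 56 were tested, 31 higher and 25 lower, with 0 called and 1 at an unadjusted p under 0.05. The largest differences were Mfap5 (-0.81, SE 0.34), Maml1 (0.50, SE 0.34) and Itch (0.48, SE 0.25), and Mfap5 was the gene at the unadjusted p (edgeR adjusted p = 1.00).

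The libraries also differed by their set letter, whose meaning the labels do not give. The comparison of set B with set A, with genotype as a term, was added after the data were seen. In all endothelial cells edgeR called 1 of 10 members, Hey1, a share close to the 9.2% of all genes called, so the count is not particular to these genes. Hey1 was lower in set B in both genotypes, by a log2 difference of -0.65 in WT and -0.78 in Vegfr2Y949F cells, and the fitted difference was -0.63 (SE 0.09, edgeR adjusted p = 0.0082). It was also called in general capillary (-0.65, adjusted p = 0.0022), aerocyte (-0.67, adjusted p = 0.0003) and venous cells (-0.74, adjusted p = 0.0045) by edgeR, where 13.4%, 6.48% and 7.58% of all genes were called and Hey1 was the 1 member called of 10, 9 and 8. The general capillary call was lost with no filter on low counts (adjusted p = 0.0507) and the venous one without the genotype term (adjusted p = 0.0598), and DESeq2 gave no adjusted p for venous Hey1. The aerocyte call was lost with DESeq2 (adjusted p = 0.144) and without the genotype term (adjusted p = 0.0742), and in aerocyte cluster 7 alone Hey1 stood between 7.45 and 11.2 CPM. In arterial cells the difference was -0.41 (SE 0.17, edgeR adjusted p = 0.177). No member was called between sets in arterial, lymphatic, all mural or smooth muscle sums, where edgeR called 3.75%, 2.15%, 0.0526% and 0.153% of all genes.

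Hes1 ran the other way. In pericytes it was 579 and 624 CPM in the 2 libraries of set A and 1074 and 975 CPM in those of set B, a fitted log2 difference of 0.83 (SE 0.20, edgeR adjusted p = 0.0026), with 2.59% of all genes called. Without the genotype term its adjusted p was 0.0556. In all endothelial cells Hes1 was 0.37 higher in set B (SE 0.11, edgeR adjusted p = 0.0779), a call only with DESeq2 (adjusted p = 0.0296) and with no filter on low counts (0.0441). Notch3, at a mean of 1.79 CPM in these cells, differed by -0.92 (SE 0.24, edgeR adjusted p = 0.0511), and it was called with RLE factors (0.047) and with no filter (0.0049). The difference of Dll4 was 0.26 (SE 0.09, edgeR adjusted p = 0.106). Set B libraries were deeper per cell, and the summed list of immediate early and dissociation genes was 18970, 26950, 18130 and 24530 CPM in all endothelial cells and 13040, 23240, 17160 and 21200 CPM in pericytes, higher in set B in both genotypes. The part of depth and of these genes in the Hey1 and Hes1 differences was not tested. The plot of Hey1 and Hes1 by set shows the lines of both genotypes falling for Hey1 in 4 blood endothelial types.

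**Figure D4:**
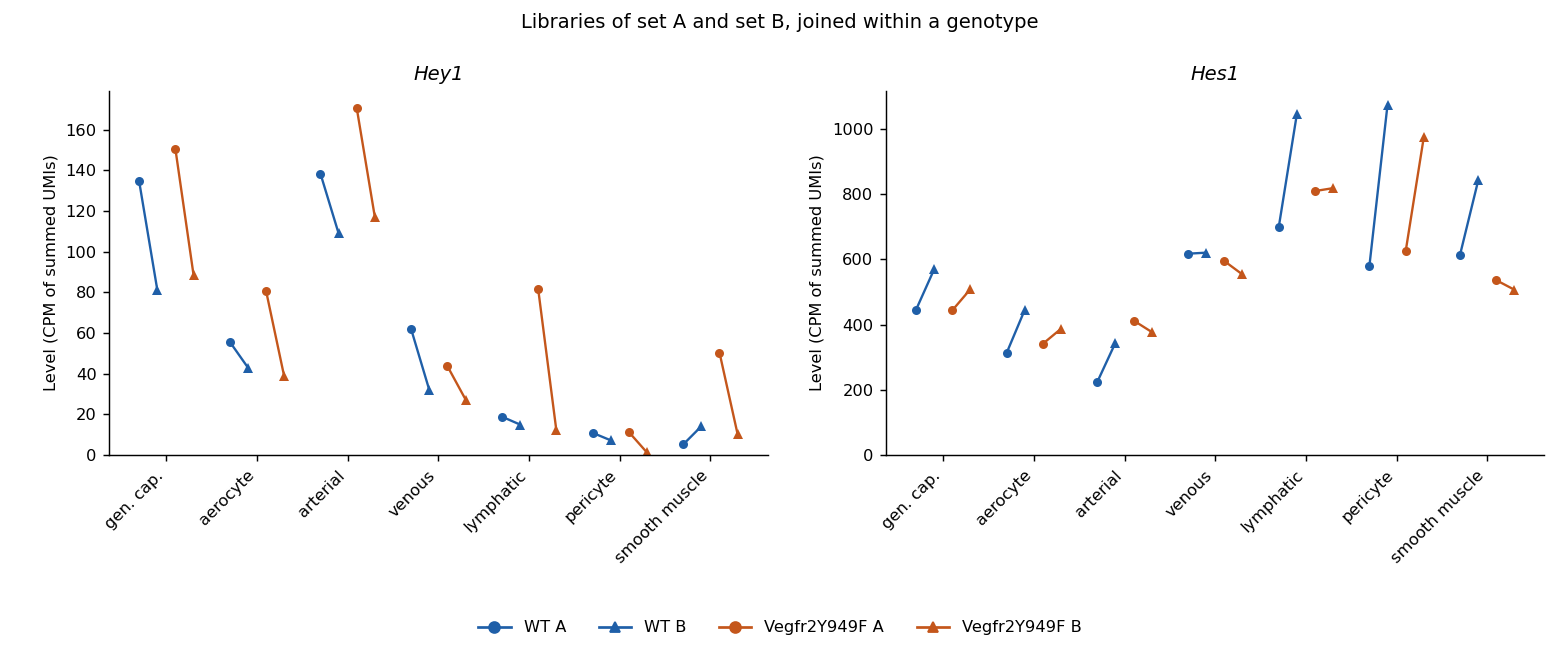
Level of Hey1 and Hes1 (vertical axes, CPM of summed UMIs, linear from 0) in 7 vascular cell types (horizontal axes); each line joins the set A library (circle) to the set B library (triangle) of 1 genotype. Hey1 falls from A to B in general capillary, aerocyte, arterial and venous cells of both genotypes, and Hes1 rises in pericytes from 579 and 624 to 1074 and 975 CPM.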

How the data were processed

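The 4 deposited matrices hold raw UMI counts per gene and barcode, not normalized, from Cell Ranger 6.1.1, per the file headers. The submitters' processing notes name mm10 as build and list Seurat 4.1.0, UMI-tools and fastp as tools. The authors' cell annotation was not used here, so types were rebuilt and may differ from the study's. Cells had at least 500 genes, 1000 UMIs and under 15% mitochondrial UMIs, and the highest 8% of Scrublet scores per library were removed. Clustering used scanpy 1.11.5 on 2000 variable genes, 40 components and 15 neighbours, with leidenalg 0.10.2 at resolution 1. A cluster was named with at least 3 of a type's markers in at least 20% of its cells and a score leading by 0.3. UMIs were summed per type and library and tested with edgeR 4.0.16 (quasi-likelihood, TMM, filterByExpr, Benjamini-Hochberg over all genes, adjusted p under 0.05), with DESeq2 1.42.0 as an alternative, where every library held at least 20 cells. Depth per sum ran from 106029 to 43901982 UMIs. edgeR was tested on simulated counts with set changes larger than any member estimate in all endothelial or all mural cells. Recovery of changes as small as those estimates was not measured. Alternatives are given in the closing section. Named were the 10 members, the 3 pathway genes with the largest fold changes in endothelial and in mural cells and all called ones, and the 3 most alike genes per member. Members and lists were chosen with earlier results of these data known.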

Additional observations from a re-analysis of the deposited data

How the results depend on the processing

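In the 9 sums, the count of members called between genotypes stayed 0 under every alternative run: DESeq2, RLE factors, no count filter, stricter cells, doublets kept, clustering without the Notch genes, resolution 2, each library left out, and the sums without the Plvap-led or the deep aerocyte cluster. Of all genes, those of these fits that used all 4 libraries called 7 of 13937 with DESeq2 and 38 of 20569 with no count filter in all endothelial cells. The others called 0 there, and all called 0 in all mural cells. In the 4 interactions the members called stayed 0 too in each fit on all 4 libraries. For arterial cells, such alternatives called 5 of 12509 (DESeq2) to 40 of 12701 genes (resolution 2). The arterial Hes1 call came only where leaving out a library left a lone Vegfr2Y949F library. The set letter was also fitted as a replicate block, although the labels do not say that it pairs libraries. It gave 0 members called in all sums, with Dll4 at 0.13 and Hey1 at 0.04 in endothelial cells. Over all genes, this fit called 6 of 13937 in all endothelial, 77 of 12774 in general capillary and 36 of 11593 in aerocyte sums. It called 11 of 8082 in arterial, 29 of 10249 in venous, 2 of 6131 in lymphatic and 10 of 8456 in pericyte sums. In smooth muscle and all mural sums it called 2 of 5883 and 0 of 9511. The difference of set A from set B correlated between the genotypes over genes (r = 0.581 over 13937 genes). Signs of small fold changes did not hold. Leaving out 1 library, with the lone library of its genotype assumed to vary like the others, gave, in all endothelial cells, -0.13 to 0.20 for Notch1, -0.20 to 0.17 for Notch2, -0.48 to 0.60 for Notch3, -0.049 to 0.34 for Notch4, -0.024 to 0.28 for Dll4, -0.14 to 0.12 for Jag1, -0.23 to 0.025 for Jag2, -0.31 to 0.39 for Hey1, -0.069 to 1.16 for Heyl and -0.32 to 0.069 for Hes1. In all mural cells it gave -0.15 to 0.68 for Notch1, -0.045 to 0.13 for Notch2, -0.22 to 0.27 for Notch3, -0.031 to 0.21 for Heyl and -0.54 to 0.30 for Hes1. Without the Plvap-led cluster the sign turned for Dll4 (-0.0022), Hey1 (-0.019) and Jag2 (0.0048), and with stricter cells for mural Notch2 (-0.014), all within 1 SE of 0. Members called between sets were 2 with RLE factors, 3 with no filter and 2 with DESeq2 in all endothelial cells. Of all genes, these settings called 1435 of 13937, 2605 of 20569 and 792 of 13937. With no filter the members called were 0 in general capillary and 1 in all mural cells, where 134 of 19468 and 219 of 15901 genes were called. With DESeq2 the members called were 0 in aerocytes and 0 in venous cells (in the latter it gave no adjusted p for Hey1). There 144 of 11593 and 109 of 10249 genes were called. Without the genotype term they were 0 in aerocyte, 0 in venous and 0 in pericyte sums, the cause of which was not tested. Of all genes, 131 of 11593, 279 of 10249 and 69 of 8456 were then called. Of the 10 highest types, 10 held for means over cells and for stricter cells, 9 in cells thinned to 1000 UMIs and 7 with clustering that left out the Notch genes, where Dll4 was highest in lymphatic (130 CPM), Jag1 in venous (82.8) and Notch4 in general capillary cells (129). Aerocyte Hey1 fell from 54.5 to 10.1 CPM and Jag1 from 42.0 to 19.3 without the deep cluster. No general capillary cluster had Esm1 among its 10 leading genes, so leaving such clusters out gave no value. Stricter cells left under 20 lymphatic cells in 2 libraries, and smooth muscle cells had no cluster of their own without the Notch genes, so these were not run. The interactions were not run with stricter cells, with doublets kept, or without the Plvap-led or the deep aerocyte cluster. Each genotype has 2 pools, which limits the precision of every genotype comparison.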
